A study of Mus musculus with 24 samples.

Results

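The comparison described here concerns short hairpins that target Kdm5b and Kdm5c (below, the Kdm5 vectors). They were given to female mice that also received a hairpin targeting Ahr (below, the AhR vector). Its members were chosen by their labels: 3 female mice given the Kdm5 vectors and then the AhR vector, against 3 female mice given a control hairpin and then the AhR vector, 6 of the 24 libraries of the study. The study measured RNA of whole liver in 8 groups of 3 alcohol-fed mice, formed by sex and by the hairpins of a first and of a second vector injection. The vectors are adeno-associated viruses that carry short hairpin RNAs, and every mouse, the controls included, drank the Lieber-DeCarli alcohol diet for 3 weeks. In all 6 females the second vector was shAhR, while the first carried shKdm5b and shKdm5c in the one group and shControl in the other. The labels name no strain, age, promoter, targeted cell type, cage, batch or collection time, and each library comes from its own mouse. Mouse numbers 1 to 3 follow the order of the samples and pair nothing.

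KDM5 proteins remove methyl groups from lysine 4 of histone H3, a mark found at active promoters, and Kdm5c lies on the X chromosome and escapes X inactivation. The aryl hydrocarbon receptor (AhR) is a ligand-activated transcription factor that binds DNA with its partner ARNT at sites with a GCGTG core and is best known in liver for inducing cytochrome P450 genes of the Cyp1 family. Liver carries a strong circadian programme in which the activators CLOCK and BMAL1 bind E-boxes, the REV-ERB proteins repress, and the factors DBP, TEF and HLF compete with the repressor NFIL3 for D-box sites.

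Values are FPKM (fragments of a gene, corrected for the length of its transcript and the size of the library), so read depth is unknown. The table holds 2372 genes, a chosen part of the transcriptome, and the 2299 that reached 1 FPKM in 3 or more libraries were tested on log2(FPKM + 0.5) with limma. An adjusted p is a Benjamini-Hochberg value over these 2299 genes and is valid for this table alone. Errors given with ± are standard errors of the log2 fold change, and that scale understates changes of low genes. The FPKM of the 6 libraries summed to between 281871 and 304173. On the first principal component of the 6 libraries, with 40.9% of the variance, AhR-vector mouse 2 stood at -15.52 and the others between -5.02 and 7.73, and on the second, with 21.4%, AhR-vector mouse 3 stood at 11.62. The genes of major urinary proteins took 2.91% to 5.93% of the sum in AhR-vector mice and 2.26% to 2.74% with the Kdm5 vectors. In bulk liver, fewer cells of a type and less RNA per cell cannot be told apart.

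Kdm5c, the targeted gene that the table allows to check, measured 13.1, 12.9 and 12.03 FPKM in the AhR-vector mice and 10.2, 12.5 and 9.37 FPKM when the Kdm5 vectors had been added. The groups overlapped, because mouse 2 with both kinds of vector stayed within the range of the other group. The log2 fold change was -0.25 ± 0.11, with a 95% confidence interval from -0.48 to -0.02, and did not pass (adjusted p = 0.29, unadjusted p = 0.0366). The knockdown of Kdm5c is therefore not established by these libraries, and a lowering by more than 0.48 on the log2 scale lies outside that interval. Kdm6a, an X-linked demethylase of another histone mark, had a log2 fold change of 0.14 ± 0.16. Neither Kdm5b nor Ahr was analysed here. Among 6 genes known to respond to AhR none passed, with a median of -0.04, and the leading target, Cyp1a2, read 95.5, 211 and 121 FPKM against 85.8, 102 and 79.9 FPKM (log2 fold change -0.60, adjusted p = 0.213).

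With the Kdm5 vectors added, 12 genes were higher and 4 lower in these females. Among those that rose were the cholesterol-linked receptor Gpr146, the glucose transporter gene Slc2a2, the peroxisomal oxidase Acox2 and the sphingosine kinase Sphk2, and among those that fell were the clock-linked repressor Nfil3 and the cytochrome P450 gene Cyp3a44. The changes were modest, from 0.51 to 1.32 on the log2 scale in either direction. The 12 higher genes are 0.522% of the 2299 tested, the 4 lower genes 0.174%, and both together 0.696%. A further 28 genes lay between adjusted p of 0.05 and 0.1, and at under 0.1 the balance was 32 higher and 12 lower. At an unadjusted p under 0.05 there were 354 genes, 231 higher and 123 lower, or 15.4%. The median gene had a log2 fold change of 0.04, and 58.4% of genes lay above 0. In 451 genes, 19.6% of those tested, the 2 groups did not overlap, 291 with the higher and 160 with the lower values under the Kdm5 vectors. All 16 genes that passed belong to these.

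**Figure D1:**
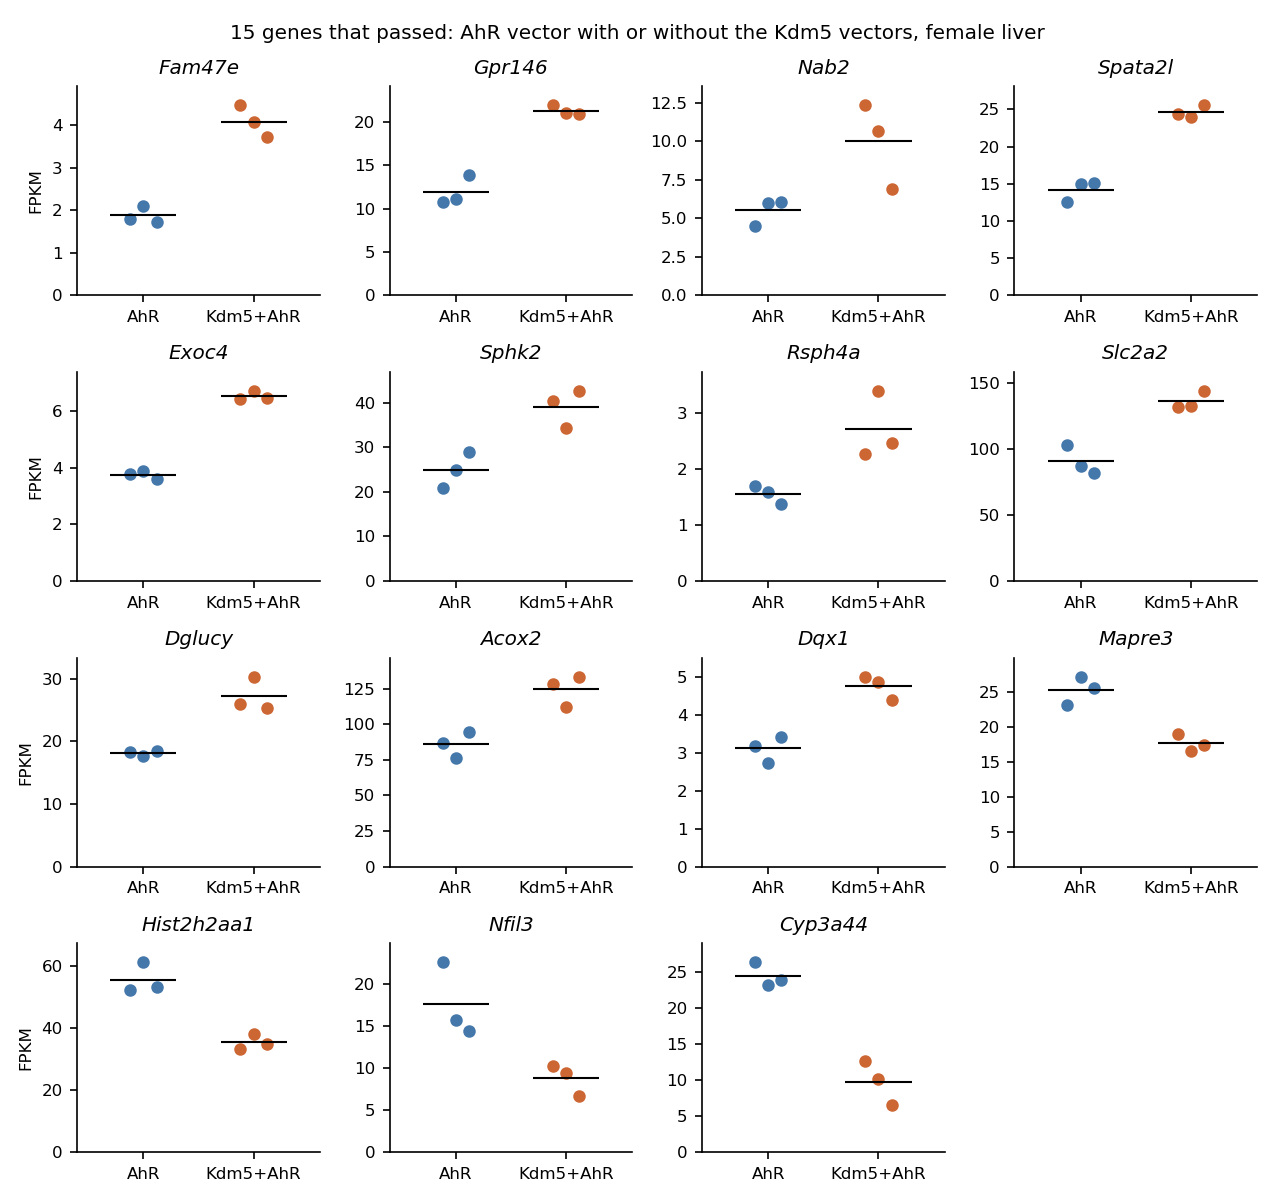
FPKM (y axis, linear from 0) of 15 of the 16 genes that passed, in the 3 female mice given the AhR vector (left) and the 3 given the Kdm5 vectors and the AhR vector (right). Points are single mice and lines group means; in each of the 15 genes the groups do not overlap.

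Among genes of nutrient uptake and lipid handling, 4 rose. Gpr146 (chromosome 5, 139377697 to 139396415), a G protein-coupled receptor known in liver for its effect on plasma cholesterol, measured 10.8, 11.1 and 13.9 FPKM with the AhR vector and 21.99, 21.0 and 20.9 FPKM with the Kdm5 vectors added. The mice with both kinds of vector lay close together and well above the others, at 0.82 ± 0.13 log2 (adjusted p = 0.00475). Acox2 (chromosome 14, 8225511 to 8259019), the peroxisomal oxidase that shortens the side chain of bile acid precursors, went from 86.9, 76.2 and 94.4 FPKM to 128, 112 and 134 FPKM. Its log2 fold change was 0.54 ± 0.09 (adjusted p = 0.00553), the smallest standard error among the 16. Slc2a2 (chromosome 3, 28697903 to 28728361), the glucose transporter GLUT2 of hepatocytes, went from 103, 87.1 and 81.5 FPKM to 132, 133 and 144 FPKM, at 0.59 ± 0.13 log2 (adjusted p = 0.0332). Sphk2 (chromosome 7, 45709463 to 45718002), a kinase that makes sphingosine 1-phosphate, went from 20.8, 25.0 and 28.9 FPKM to 40.3, 34.3 and 42.7 FPKM, at 0.65 ± 0.14 log2 (adjusted p = 0.0314). In the annotation Sphk2 shares 741 bases with the clock gene Dbp and 2536 with Rpl18. The whole span of Gpr146, 18719 bases, lies within another protein-coding gene, 3110082I17Rik, and Slc2a2 shares 26139 bases with a long non-coding RNA gene. The sources used here do not say that counting used strand, so reads of these genes may be shared with their neighbours.

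Signalling and regulatory genes that rose included Nab2, Spata2l and Exoc4. Spata2l (chromosome 8, 123232255 to 123236263), a relative of the deubiquitinase adaptor SPATA2, measured 12.5, 15.0 and 15.1 FPKM against 24.4, 24.0 and 25.6 FPKM, at 0.78 ± 0.12 log2 (adjusted p = 0.00475). Nab2, a corepressor of EGR transcription factors, measured 4.53, 5.97 and 6.05 FPKM against 12.4, 10.7 and 6.92 FPKM; the third mouse with both kinds of vector stayed close to the AhR-vector mice, and the log2 fold change was 0.78 ± 0.18 (adjusted p = 0.0394). Exoc4, a subunit of the exocyst complex of vesicle docking, measured 3.77, 3.89 and 3.60 FPKM against 6.45, 6.73 and 6.48 FPKM, with little spread in either group, at 0.73 ± 0.16 log2 (adjusted p = 0.0314).

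Another 4 genes that rose have less settled roles in liver. Fam47e rose from 1.80, 2.09 and 1.73 FPKM to 4.47, 4.06 and 3.71 FPKM, by 0.95 ± 0.18 log2 (adjusted p = 0.0238). Dglucy, the mitochondrial D-glutamate cyclase, rose from 18.3, 17.7 and 18.4 FPKM to 25.9, 30.3 and 25.4 FPKM (0.57 ± 0.12 log2, adjusted p = 0.0314). Rsph4a encodes a radial spoke head protein of cilia, and Dqx1 a putative RNA-dependent ATPase. Rsph4a went from 1.38 to 1.69 FPKM up to 2.27 to 3.39 FPKM, and Dqx1 from 2.74 to 3.43 FPKM up to 4.41 to 5.02 FPKM, with log2 fold changes of 0.63 and 0.54 and adjusted p of 0.0314 for both.

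Cyp3a44 (chromosome 5, 145773983 to 145805891), a cytochrome P450 gene of female liver, had the widest change of the 16. It measured 26.3, 23.2 and 23.8 FPKM in the AhR-vector mice and 12.7, 10.1 and 6.59 FPKM with the Kdm5 vectors added, and fell by 1.32 ± 0.28 on the log2 scale, 2.50-fold (adjusted p = 0.0314). Its close copy Cyp3a41a read -0.67 ± 0.42 (adjusted p = 0.484), and reads can be shared between the pair. Nfil3 (chromosome 13, 52967209 to 52982878), the D-box repressor, fell from 22.6, 15.7 and 14.4 FPKM to 10.3, 9.45 and 6.70 FPKM, by 0.95 ± 0.19 (adjusted p = 0.0238). Hist2h2aa1, a replication-dependent histone H2A gene with a near-identical copy, fell from 52.2, 61.1 and 53.1 FPKM to 33.2, 38.1 and 34.8 FPKM, by 0.64 ± 0.13 (adjusted p = 0.0262). Mapre3, which encodes the microtubule end-binding protein EB3, fell from 23.1, 27.2 and 25.5 FPKM to 19.0, 16.5 and 17.4 FPKM, by 0.51 ± 0.11 (adjusted p = 0.0314).

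How firmly these 16 stand differs. Apart from the overlaps given above for Gpr146, Slc2a2 and Sphk2, Exoc4 shares 31978 bases and Spata2l 1173 with a long non-coding RNA gene, so their reads may be shared as well. Gpr146, Spata2l and Acox2 passed in each of 6 fits that left out 1 of the 6 mice, Nfil3 in 4, Fam47e and Hist2h2aa1 in 3, and Nab2, Sphk2 and Cyp3a44 in 2. Rsph4a, Slc2a2, Dglucy, Dqx1 and Mapre3 passed in 1 and Exoc4 in 0, where its adjusted p ran from 0.0559 to 0.125. The count itself was 5 without mouse 3 of the Kdm5 and AhR vectors, 6 without AhR-vector mouse 2 and 36 without AhR-vector mouse 3, of which 21 were higher and 15 lower. None of the 16 changed direction in any of the 15 alternatives run, which gave 238 values over the 16 genes. The groups do not overlap in any of the 16, so leaving out a mouse or changing the pseudocount could not reverse them. Their kept direction is therefore no test of firmness. Fitted on the 12 female libraries alone, Gpr146 and Spata2l passed, and on the 6 compared libraries alone limma passed 0 genes, and 292 had an unadjusted p under 0.05.

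The clock genes had the highest median of the gene lists examined. Of 13 tested, 1 passed, Nfil3, which fell, while 8 had an unadjusted p under 0.05 and 9 lay above 0, with a median log2 fold change of 0.49 beside 0.04 over all genes. Over all genes 15.4% had an unadjusted p under 0.05 and 58.4% lay above 0, the shares to set beside each list below. These shares belong to the fit with all mice. For the fits without 1 mouse they are not given here, and the median of all genes there was 0.02 to 0.06. Without 1 of the 6 mice the median of the clock genes was 0.31 to 0.66, lowest without mouse 3 of both kinds of vector. The promoters of 4 of them are shown as examples, because the clock factors named above act through short motifs there. Among the clock promoters, that of Per3 holds the only D-boxes and that of Ciart the most E-boxes, so the 4 are not typical. Other clock promoters with neither box, such as those of Arntl, Dbp and Nr1d1, are not shown. Those shown are the 250 bases before 1 transcription start per gene in RefSeq on build GRCm38.p6, printed 5′ to 3′ on the gene's strand. Capitals mark, on either strand, the E-box CACGTG, the D-box TTATGTAA and the nuclear receptor half-site AGGTCA, whose reverse is TGACCT. The Nfil3 promoter (chr13:52981040-52981289, minus strand) holds 1 half-site and neither box, that of Per3 (chr4:151044666-151044915, minus strand) 2 D-boxes, that of Cry1 (chr10:85185055-85185304, minus strand) 1 E-box and that of Ciart (chr3:95882229-95882478, minus strand) 3 E-boxes. The start used for Nfil3 lies 1839 bases inside the gene span given above, so its stretch precedes an internal start, and those used for Per3 and Ciart lie 42 and 29 bases inside their spans.
Nfil3: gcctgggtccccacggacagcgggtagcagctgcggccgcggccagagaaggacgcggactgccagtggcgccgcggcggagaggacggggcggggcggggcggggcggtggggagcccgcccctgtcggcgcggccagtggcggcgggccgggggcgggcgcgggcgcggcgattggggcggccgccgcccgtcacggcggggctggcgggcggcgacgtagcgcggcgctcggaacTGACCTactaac
Per3: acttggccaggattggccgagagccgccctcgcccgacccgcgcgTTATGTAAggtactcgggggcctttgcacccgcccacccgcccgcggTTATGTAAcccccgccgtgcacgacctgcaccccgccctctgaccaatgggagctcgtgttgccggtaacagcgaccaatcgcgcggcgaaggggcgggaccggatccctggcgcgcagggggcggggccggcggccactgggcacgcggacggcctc
Cry1: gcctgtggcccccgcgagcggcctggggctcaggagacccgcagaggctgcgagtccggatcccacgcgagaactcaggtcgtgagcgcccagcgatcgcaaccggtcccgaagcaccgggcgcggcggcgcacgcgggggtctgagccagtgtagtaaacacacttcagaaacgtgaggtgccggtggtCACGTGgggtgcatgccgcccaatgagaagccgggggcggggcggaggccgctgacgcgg
Ciart: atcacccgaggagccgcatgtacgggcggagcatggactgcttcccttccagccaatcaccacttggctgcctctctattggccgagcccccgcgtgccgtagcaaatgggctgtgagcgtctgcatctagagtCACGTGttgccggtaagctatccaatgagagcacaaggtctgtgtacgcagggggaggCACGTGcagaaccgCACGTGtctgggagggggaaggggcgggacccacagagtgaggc

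RefSeq entries were matched for 12 of the 13 clock genes, with 15 promoters, and for 12 of the 16 genes that passed, with 18. Nfil3 is counted in both sets. The E-box was found in 5 of the 15 clock promoters (33.3%), in 0 of the 18 promoters of genes that passed, and in 6.02% of all 32851 promoters. The D-box was found in 1 of 15 (6.67%), in 1 of 18 (5.56%, that of Hist2h2aa1) and in 0.819% of all. The palindrome TTACGTAA, a preferred site of NFIL3, was in none of either set and in 0.113% of all. The core GCGTG was in 10 of 15 (66.7%), 4 of 18 (22.2%) and 28.2%, and AGGTCA in 3 of 15 (20.0%), 4 of 18 (22.2%) and 14.0%. All were searched on both strands, and the motifs are counted separately where they overlap. These matches describe the letters only.

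The D-box activators lay on the other side of 0 from Nfil3 but did not pass. Dbp read 1.57, 5.65 and 5.11 FPKM with the AhR vector and 9.47, 17.0 and 14.2 FPKM with the Kdm5 vectors added, at 1.72 ± 0.44 log2 (adjusted p = 0.0732). Tef read 10.6, 17.3 and 14.7 FPKM against 22, 30.2 and 23.7 FPKM, at 0.82 ± 0.21 (adjusted p = 0.0695). In both the groups did not overlap, and AhR-vector mouse 1 was the lowest of the 6.

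The remaining clock genes lay on both sides of 0, and none passed. Nr1d1, Nr1d2, Per3, Ciart, Bhlhe40, Usp2 and, at 0.05, Per1 lay above it, and Cry1, Arntl and Npas2 below. Cry1, a repressor of CLOCK and BMAL1, read 8.49, 5.18 and 6.54 FPKM against 3.79, 4.06 and 2.49 FPKM, at -0.87 ± 0.23 (adjusted p = 0.0852). Nr1d1, which encodes REV-ERB alpha, read 13.2, 31.9 and 19.9 FPKM against 44.4, 51.6 and 38.3 FPKM, at 1.11 (adjusted p = 0.23), and Nr1d2, its paralogue, had 0.59 (adjusted p = 0.228). Per3 had 1.00 (adjusted p = 0.154), with 0.37, 1.18 and 0.62 FPKM against 1.32, 2.94 and 1.58 FPKM. Ciart, a repressor of the same activators, had 1.11 (adjusted p = 0.341), and AhR-vector mouse 1, at 0.20 FPKM, stood below the 5 others, which read 1.93 to 4.75 FPKM. Bhlhe40 had 0.49 (adjusted p = 0.213) without overlap, and Usp2 0.42 (adjusted p = 0.59) with overlap. Arntl, which encodes BMAL1, had -0.22, Npas2 -0.24 and Per1 0.05, with overlapping groups. The collection time of each mouse is not given, and its part in these values was not tested.

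**Figure D2:**
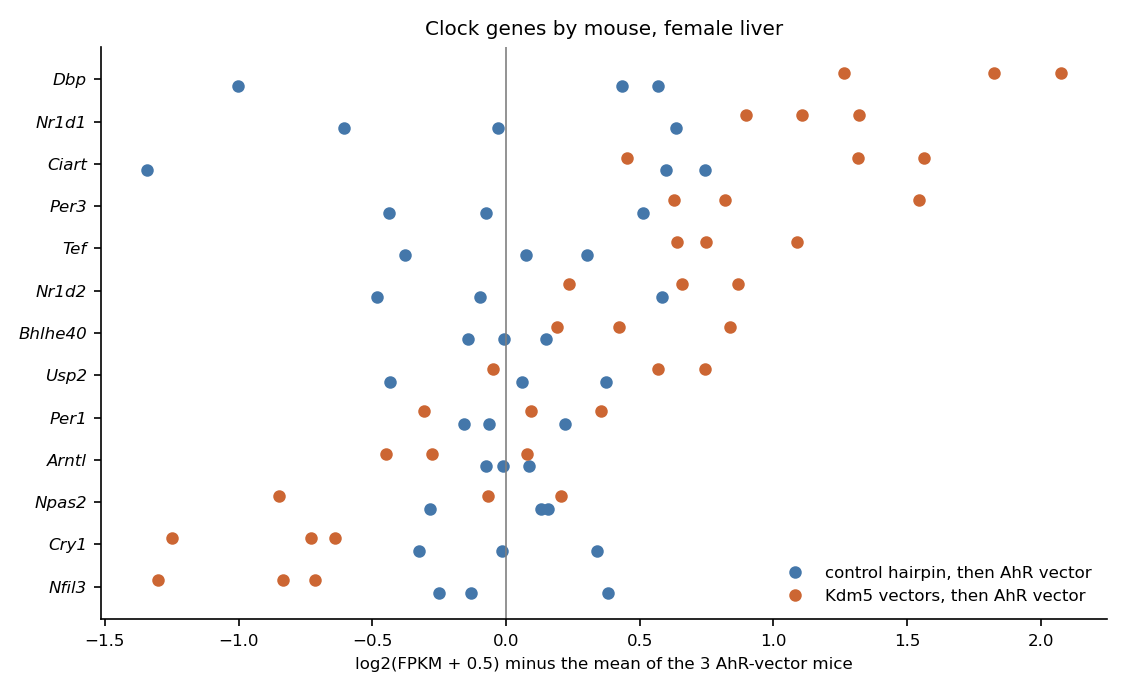
Values of 13 clock genes in single mice, as log2(FPKM + 0.5) minus the mean of the 3 AhR-vector mice (x axis), sorted by log2 fold change. Dbp, Nr1d1, Per3, Tef and Bhlhe40 lie higher without overlap with the Kdm5 vectors, Cry1 and Nfil3 lower without overlap, and Nfil3 alone of the 13 passed.

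Bile acid genes were led by Acox2, the 1 member of 20 that passed; 8 had an unadjusted p under 0.05, 4 lay above 0 and the median was -0.16. Nr1h4, which encodes the bile acid receptor FXR, had -0.32 ± 0.13 (adjusted p = 0.218), and its target Nr0b2, which encodes the repressor SHP, read 38.6, 52.2 and 47.4 FPKM against 28.9, 24.7 and 31.5 FPKM (-0.68 ± 0.30, adjusted p = 0.281). Cyp2c70, the hydroxylase that makes muricholic acids in mice, read 160, 328 and 114 FPKM against 93.8, 80.6 and 80.0 FPKM (-1.10, adjusted p = 0.181), and AhR-vector mouse 2 accounts for the highest value. Slc10a1, which encodes the bile acid uptake carrier NTCP, had 0.27 ± 0.12 (adjusted p = 0.272). Slco1a1, an organic anion carrier, stood at 26.4 FPKM in AhR-vector mouse 2 and at 1.24 to 4.21 FPKM in the 5 others (-1.61, adjusted p = 0.218). Without AhR-vector mouse 2 the list's median was -0.06 and 2 members had an unadjusted p under 0.05, and without AhR-vector mouse 3 Slco1a1 passed as lower.

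Of 34 cytochrome P450 genes 1 fell, Cyp3a44, and 13 lay above 0, with a median of -0.19. Without AhR-vector mouse 3, 4 fell, Cyp3a44, Cyp2c69, Cyp4f14 and Cyp2f2, and the median was -0.07. No P450 gene passed without AhR-vector mouse 2 (median -0.13) or without mouse 2 or 3 of both kinds of vector. Without AhR-vector mouse 1 the member that passed was Cyp2j5 and not Cyp3a44. Cyp2j5, an epoxygenase of arachidonic acid, read 163, 206 and 195 FPKM against 143, 131 and 140 FPKM (-0.44 ± 0.11, adjusted p = 0.0732). Cyp26b1, which breaks down retinoic acid, lay on the other side of 0, at 1.61, 1.22 and 0.79 FPKM against 2.01, 2.35 and 2.94 FPKM (0.80 ± 0.20, adjusted p = 0.0732). Among 29 genes of conjugation none passed, 8 lay above 0 and the median was -0.11. The glucuronosyltransferase genes Ugt2b37 and Ugt2b1 had -1.43 (adjusted p = 0.0732) and -0.64 (adjusted p = 0.0915), and reads of this family can be shared between members. Both passed as lower without AhR-vector mouse 3, where 13 of the 29 had an unadjusted p under 0.05, beside 9 with all mice. More genes of the whole table also passed in that fit, so 13 beside 9 is no trait of this list. Without AhR-vector mouse 2 the list's median was -0.04. Of 12 sulfotransferase genes none passed, with a median of -0.22 and Sult1b1 highest in evidence at 0.75 ± 0.20 (adjusted p = 0.0852), and the median was -0.11 without AhR-vector mouse 2.

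Genes that differ by sex in mouse liver lay mostly below 0. Of 38 male-biased genes none passed, 9 lay above 0 (of all genes, 58.4%) and 8 had an unadjusted p under 0.05 (of all genes, 15.4%). Their median was -0.33, the lowest of the lists. That median rests on AhR-vector mouse 2, which was high for many of them, such as Mup1, a major urinary protein gene, at 67.4 FPKM beside 42.7 and 30.1 FPKM in the other AhR-vector mice and 19.8 to 23.3 FPKM with the Kdm5 vectors. Without that mouse the median was -0.09 and 16 genes lay above 0, and without AhR-vector mouse 3 it was -0.60 and 2 genes passed as lower. Of 30 female-biased genes 1 fell, Cyp3a44, 13 lay above 0 and the median was -0.07; without AhR-vector mouse 3 the count was 2, and without any other single mouse 0 or 1.

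No member of the lists of energy metabolism passed. Of 28 genes of fatty acid oxidation and PPAR alpha 21 lay above 0, with a median of 0.14. That median was 0.03 without AhR-vector mouse 2, and 0.24 without AhR-vector mouse 3, where 1 member passed as higher. Acaa2, a thiolase of mitochondrial beta-oxidation, read 466, 410 and 496 FPKM against 507, 521 and 518 FPKM without overlap (0.18 ± 0.08, adjusted p = 0.317), and Cpt1a, the carnitine palmitoyltransferase that admits fatty acids to mitochondria, 122, 114 and 181 FPKM against 166, 154 and 194 FPKM with overlap (0.32 ± 0.18, adjusted p = 0.406). Of 16 genes of gluconeogenesis and insulin response none passed. Pcx, the pyruvate carboxylase, read 179, 144 and 179 FPKM against 216, 212 and 213 FPKM (0.36 ± 0.10, adjusted p = 0.10).

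None of 14 genes of fatty acid and triglyceride synthesis passed (median -0.03), with Fads1, the delta-5 desaturase, at -0.43 ± 0.12 (adjusted p = 0.104), and none of 9 of cholesterol synthesis and uptake (median -0.14). Of 8 genes that oxidise ethanol and its aldehyde none passed and the median was -0.02. Cyp2e1, the ethanol-induced cytochrome, read 4290, 5530 and 5620 FPKM against 5340, 5300 and 4600 FPKM, and Adh1, the main alcohol dehydrogenase, 1900, 1680 and 1290 FPKM against 1320, 1420 and 1300 FPKM, with overlap in both. The 50 respiratory chain genes had a median of -0.02 and none passed.

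Inflammatory and stress genes did not pass either. Medians were -0.06 for 18 acute phase and plasma genes, -0.02 for 16 interferon-stimulated genes, -0.25 for 5 genes of MHC class II, -0.13 for 16 glucocorticoid-responsive genes, -0.13 for 13 genes of endoplasmic reticulum stress and heat shock, -0.06 for 14 Nrf2 genes and 0.24 for 4 genes of p53 and the cell cycle. Crp, an acute phase protein, had -0.46 ± 0.13 and the chaperone gene Dnajb9 -0.55 ± 0.16, both with adjusted p of 0.10, and both passed without AhR-vector mouse 3. Above 0 lay 7 of the 18 acute phase and plasma genes, among them Serpina3n at 0.58 ± 0.19 (adjusted p = 0.168). The same held for 7 of the 16 interferon-stimulated genes, Ddx58 among them at 0.39 ± 0.13 (adjusted p = 0.156). All 5 MHC class II genes lay below 0. Of 13 hepatocyte transcription factors none passed; Hnf4a, a master regulator of hepatocyte genes, read 213, 248 and 216 FPKM against 170, 177 and 179 FPKM without overlap (-0.36 ± 0.10, adjusted p = 0.10).

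**Figure D3:**
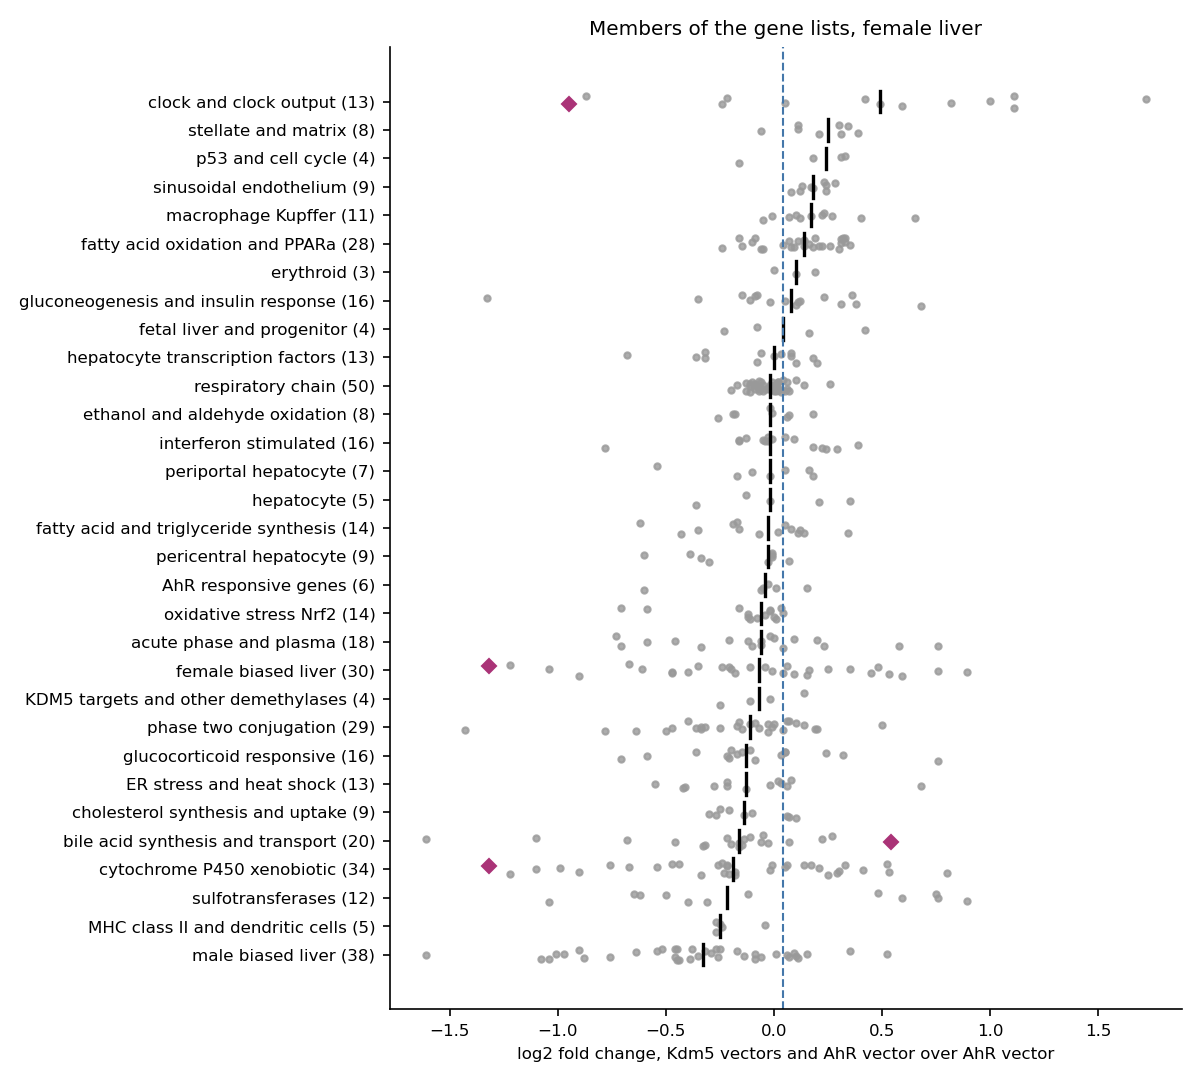
Log2 fold change (x axis) of each tested member of the gene lists with at least 3 tested members, sorted by the list's median (black bar), with the number of tested members in brackets. Diamonds passed, grey points did not, and the dashed line is the median of all 2299 genes, 0.04; the clock list has the highest median, 0.49, and the male-biased list the lowest, -0.33.

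Hepatocyte markers were present at high levels, such as Apoa1 at 6680 to 10700 FPKM, with a median of -0.02 over 5 tested. Medians were -0.03 for 9 pericentral and -0.02 for 7 periportal markers, among which the periportal Cyp2f2 had -0.54 ± 0.15 (adjusted p = 0.0883). Most markers of sinusoidal endothelial, stellate and macrophage cells lay slightly higher with the Kdm5 vectors, and none passed. The 5 MHC class II genes given above lay on the other side of 0 (median -0.25). All 9 sinusoidal endothelial markers lay above 0 (median 0.18; their FPKM summed to 166 to 186 against 146 to 160), as did 7 of 8 stellate cell and matrix markers (median 0.25; sums of 597 to 656 against 522 to 552), in both without overlap between the groups. Of all single genes tested, 19.6% did not overlap and 58.4% lay above 0, and the most abundant members weigh most in a sum. Of 11 macrophage and Kupffer cell markers 9 lay above 0 (median 0.17; sums of 487 to 648 against 465 to 614), with the scavenger receptor Cd163 at 0.65 ± 0.19 (adjusted p = 0.109). The 2 cholangiocyte markers had 0.16 and 0.07. The 3 erythroid markers summed to 850 to 1440 against 871 to 1070 FPKM. No neutrophil or lymphocyte marker of the lists was among the genes used. The part of these marker differences in the 16 changes was not tested.

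Whether the Kdm5 vectors act differently when the AhR vector is present was tested as the difference between their effect with it and their effect without it. The effects come from the 12 females and the spread from all 24 libraries. Here 14 of 2299 genes passed (0.609%), 8 with the higher and 6 with the lower effect when the AhR vector was present, and 3 of them are among the 16, Spata2l and Nfil3 included. At an unadjusted p under 0.05 there were 234 genes. With the spread taken from the 12 female libraries alone, 1 gene passed, Afp. Afp, the fetal serum protein, had the widest difference, -3.20 ± 0.41 (adjusted p = 0.000385). It read 0.05, 0.23 and 0.33 FPKM under control hairpins, 10.3, 5.85 and 8.54 FPKM with the Kdm5 vectors alone, 10.1, 16.9 and 20.4 FPKM with the AhR vector and 16, 25.2 and 21.4 FPKM with both. With the Kdm5 vectors Afp was thus higher by 3.62 on the log2 scale without the AhR vector and by 0.42 (adjusted p = 0.526) with it. The control values lie below the 0.5 FPKM added before taking logs, so 3.62 and -3.20 depend on that setting and on the log scale. In FPKM the mean also rose with the AhR vector present, from 15.8 to 20.9 FPKM, with overlapping groups.

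Nfil3 differed by -1.26 ± 0.27 (adjusted p = 0.0263), as it read 15.3, 14.2 and 16.1 FPKM under control hairpins and 21.3, 15.2 and 21.0 FPKM with the Kdm5 vectors alone, 0.31 higher on the log2 scale where it fell by 0.95 with the AhR vector. Spata2l differed by 0.89 ± 0.17 (adjusted p = 0.0182), its effect without the AhR vector being -0.11. Acox2 had an effect of 0.45 without the AhR vector and 0.54 with it, a difference of 0.08 ± 0.13 that did not pass (adjusted p = 0.86). Cyp3a44 likewise fell in both settings, by 1.68 and by 1.32, with a difference of 0.36 ± 0.39 that did not pass (adjusted p = 0.796).

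Several other genes had effects on opposite sides of 0. Thrb, the thyroid hormone receptor beta of liver, differed by 1.19 ± 0.22 (adjusted p = 0.0143), at -0.60 without and 0.59 with the AhR vector. Abcb1a, a drug efflux pump, differed by 1.45 ± 0.30 (adjusted p = 0.0251), Srsf5, a splicing factor, by 1.25 ± 0.25 (adjusted p = 0.0223) and Ak4, a mitochondrial adenylate kinase, by 0.99 ± 0.21 (adjusted p = 0.0288). Slc30a1, a zinc exporter named here after its values were seen, also passed. On the other side were Tuba8, an alpha tubulin, at -1.62 ± 0.29 (adjusted p = 0.0141), Rtn4rl1, a Nogo receptor relative, at -1.27 ± 0.27 (adjusted p = 0.0288), Mavs, the adaptor of antiviral sensing, at -0.68 ± 0.14 (adjusted p = 0.0251) and Dpy19l1 at -0.68 ± 0.15 (adjusted p = 0.029). Afp passed in each of 12 fits without 1 mouse, Thrb and Tuba8 in 10, Spata2l in 8, Nfil3 and Srsf5 in 7, and the others named in 6 or fewer. The count of 14 was 1 without control mouse 1 or mouse 3 of both kinds of vector and 23 without control mouse 2. Across the 2299 genes the effects with and without the AhR vector, which use different mice, had r = 0.38 and rho = 0.35, given as a description since genes are not independent replicates, and 11 of the 16 genes had the same sign in both. The share of all genes with the same sign was not counted, so 11 of 16 is no trait of these genes.

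**Figure D4:**
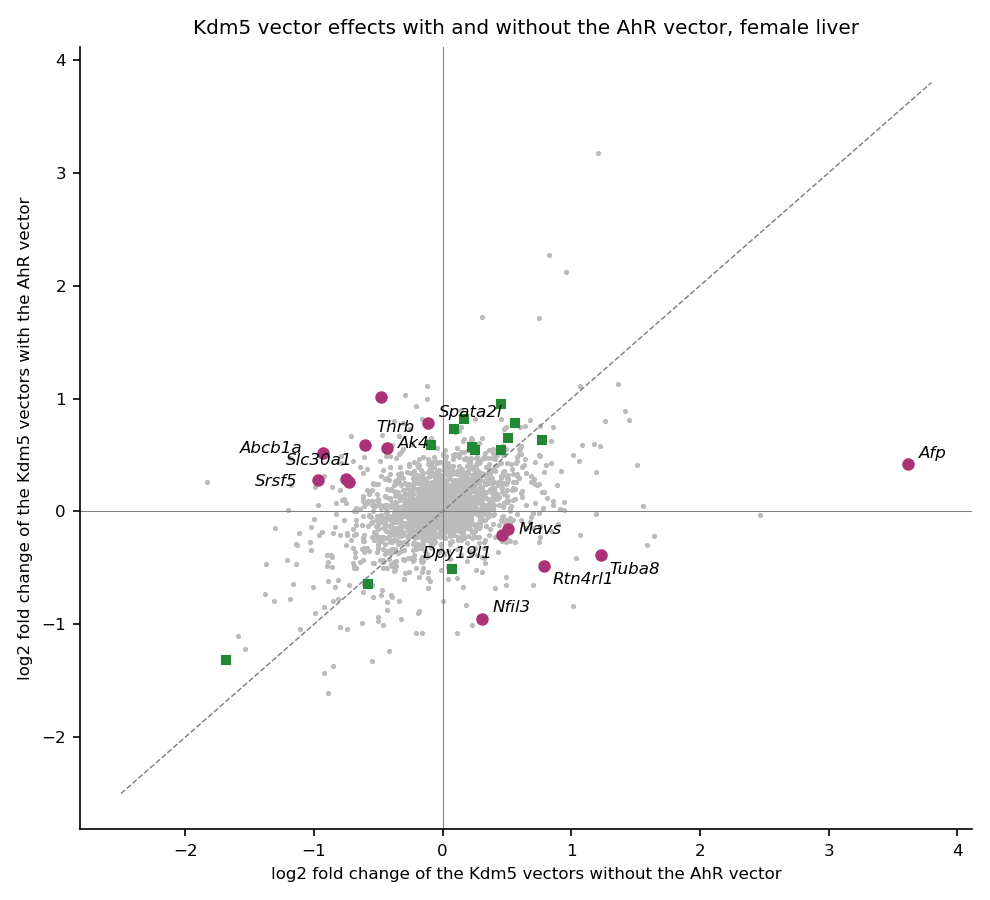
Log2 fold change of the Kdm5 vectors in females without the AhR vector (x axis) and with it (y axis) for 2299 genes. Circles are the 14 genes whose effects differed, most of them named, squares are the genes that passed with the AhR vector without such a difference, and the dashed line marks equal effects; Afp, at 3.62 and 0.42, lies farthest from it.

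The same vectors were given to 3 males on top of the AhR vector, and the effect there was set against that in females. The effects differed in 40 of 2299 genes (1.74%), 31 of them higher on the female side and 9 on the male side, and 4 of them are among the 16. Over all 2299 genes the median difference was 0.13, and 66.1% lay above 0, on the female side. With a median-of-ratios scaling 18 genes differed, 11 and 7. At an unadjusted p under 0.05 there were 440 genes. Spata2l had the smallest p, with a difference of 1.95 ± 0.17 (adjusted p = 1.1e-06). In males it fell from 32.5, 40.7 and 34.2 FPKM to 18.3, 15.5 and 13.2 FPKM, a log2 fold change of -1.17, while it rose by 0.78 in females. Sphk2 (0.84 ± 0.20, adjusted p = 0.0392), Dqx1 (0.74 ± 0.17, adjusted p = 0.032) and Nfil3 (-1.07 ± 0.27, adjusted p = 0.042) were the others of the 16. Nfil3 in males read 10.1, 9.48 and 9.38 FPKM and, with the Kdm5 vectors, 11.1, 8.67 and 12.1 FPKM.

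Bcl6, a transcriptional repressor more abundant in male liver, differed by 2.75 ± 0.41 (adjusted p = 0.00167). Males with the AhR vector read 31.4, 30.0 and 16.3 FPKM and with the Kdm5 vectors added 2.28, 1.99 and 2.00 FPKM, without overlap, whereas females read 8.25, 13.5 and 6.43 FPKM and 4.38, 6.23 and 7.87 FPKM, with overlap. Rap1gap, which inactivates the small GTPase RAP1, differed by 1.44 ± 0.35, the lectin gene Lgals4 by 1.42 ± 0.31 and Rasgef1b, an exchange factor of RAS-type GTPases, by 1.30 ± 0.27. The predicted gene Gm40363 differed by 2.99 ± 0.69 and was low in every group, at no more than 2.66 FPKM in these females. Differences in the other direction were those of the predicted genes Gm42078, Gm39701 and Gm41844 (-4.77, -2.28 and -1.99), the ferritin receptor gene Scara5 (-1.85), Camk2b, a calmodulin-dependent kinase (-1.81), and the metallothionein Mt1 (-1.73). In these 6 genes the female change did not pass and the male values rose, Mt1 for instance from 116 to 228 FPKM up to 254 to 388 FPKM.

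Hnf4a also differed, by -0.67 ± 0.15 (adjusted p = 0.032), at -0.36 in females and 0.31 in males. For Nab2 the difference was -0.01 ± 0.25 and did not pass, and males went from 4.77, 4.72 and 6.18 FPKM to 10.2, 8.11 and 9.68 FPKM, 0.78 on the log2 scale (adjusted p = 0.0163). Kdm5c had -0.51 in males against -0.25 in females, and the difference of 0.26 ± 0.16 did not pass (adjusted p = 0.364). Spata2l and Bcl6 passed in each of 12 fits without 1 mouse, while the count of 40 ran from 2, without female AhR-vector mouse 2 or female mouse 3 of both kinds of vector, to 56. Across genes the female and male effects, which use different mice, had r = -0.10 and rho = -0.11, again as a description, and 7 of the 16 genes had the same sign. Here too the share of all genes with the same sign was not counted.

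**Figure D5:**
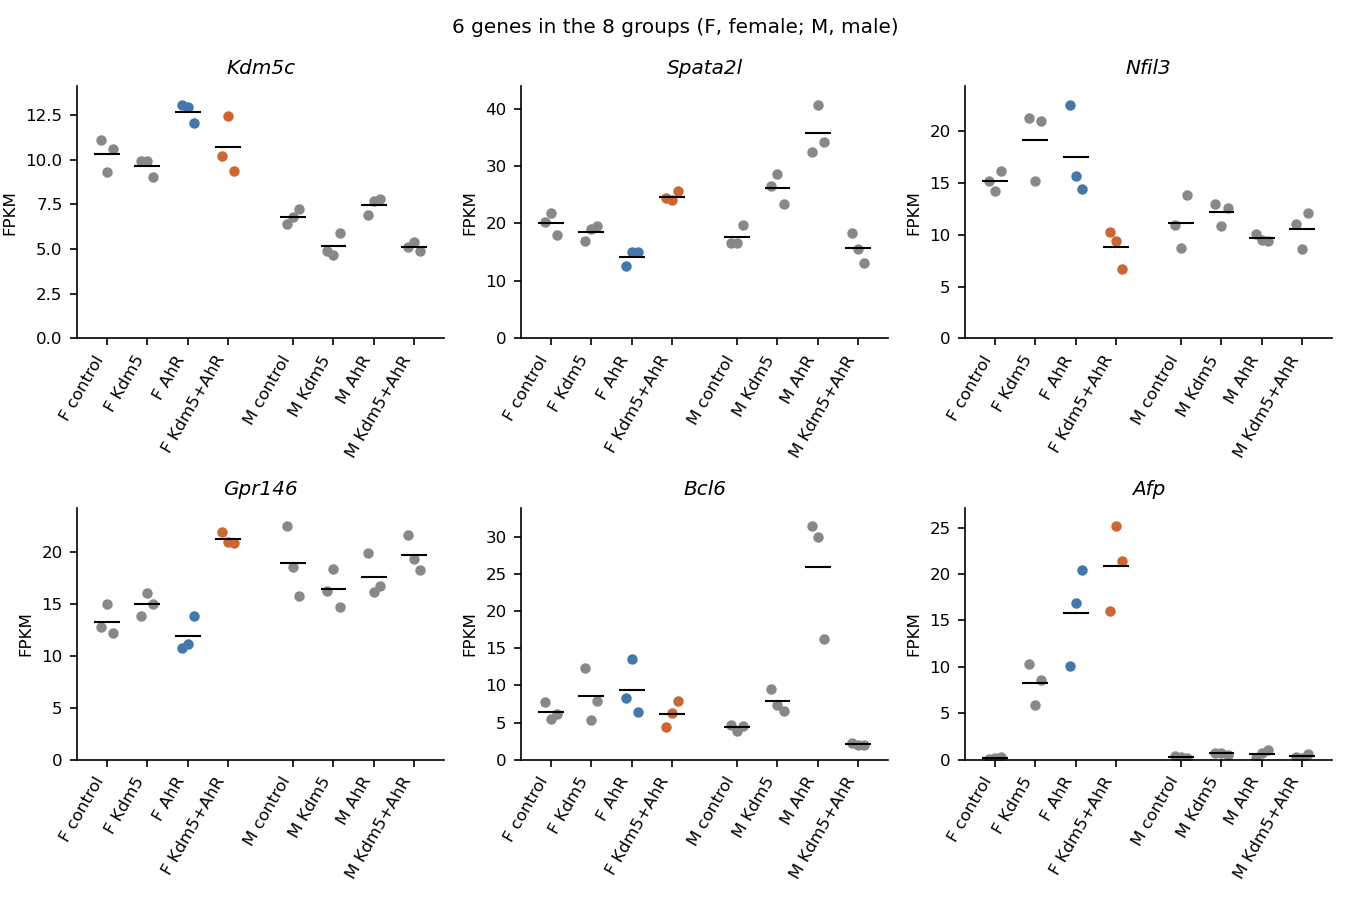
FPKM (y axis, linear from 0) of 6 genes in single mice of the 8 groups, 3 mice each, with group means as lines; the compared female groups are coloured. Spata2l is higher with the Kdm5 vectors on top of the AhR vector in females and lower in males, Nfil3 has its lowest mean in females with both kinds of vector, and Afp is at 5.85 FPKM or more in females with any active vector.

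Over all 24 libraries, with the mean of each sex removed, the pattern of Nfil3 was most like that of Cry1 (r = 0.70), and that of Spata2l was close to Tob2 (0.74) and the clock gene Per1 (0.71). Gpr146 was most like Trim14 (0.75), Acox2 most like Pafah2 (0.80) and Slc2a2 most like Ak4 (0.83). These correlations describe likeness over libraries that share the group differences given above.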

How the data were processed

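RNA of whole liver from 24 alcohol-fed mice was used, of which 6 form the comparison described. The authors deposited 1 table of FPKM per gene and library, per the file headers; its depth per sample is unknown. The tools were HISAT and Bowtie2 and the build GRCm38.p6, per the submitters' processing notes; for versions, counting step and strand, nothing is given in the sources used here. How the 2372 genes were chosen is not stated. No libraries held identical values.

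Groups came from the labels alone. FPKM were tested as log2(FPKM + 0.5) with limma 3.58.1 in R 4.3.3, all 24 libraries, 8 group means, 16 residual degrees of freedom, an intensity trend and robust moderation, for 2299 genes; 73 were left out. The difference of effects was tested with and without the AhR vector and between sexes. Where nothing says that mice were raised or processed apart, p-values measure the spread between these mice only.

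The members and gene lists were chosen with earlier results of these data known. Genes named are Kdm5c, up to 15 highest and 15 lowest that passed an adjusted p of 0.05, averaged at least 1 FPKM and did not overlap, up to 4 passing members of a list or else its smallest p, and up to 6 each way for a difference; other list members were named as examples after their values were seen, Hnf4a, Sphk2, Dqx1 and Nab2 in the sex comparison included. A few genes chosen this way are not reported here. Likeness is Pearson's r over 24 libraries.

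Tested on simulated data with 200 of 2299 genes changed in this comparison, the fit recovered 55% of changes of 0.5 log2 and 89% of those of 1 log2, and 5.26% of its calls were false. The simulation held more changed genes than the 16 called here, and its noise was drawn independently, with no outlying mouse. These rates may therefore not carry over to the measured libraries. Alternatives were another scaling, pseudocounts of 0.1 and 1, no or a stricter filter (a mean of 2 FPKM and 12 libraries), no trend, library weights, fewer groups and leaving out each mouse. Promoters came from RefSeq tables of GRCm38.p6.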

Additional observations from a re-analysis of the deposited data

Results flagged for a closer look

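The effect of the Kdm5 vectors in females differed with and without the AhR vector, tested as a difference of effects in limma at an adjusted p of 0.05. The log2 differences, with minus without, were 1.45 for Abcb1a, 1.25 for Srsf5, 1.19 for Thrb and 0.99 for Ak4. They were -3.20 for Afp, -1.62 for Tuba8, -1.27 for Rtn4rl1, -1.26 for Nfil3, and -0.68 for both Mavs and Dpy19l1.

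Between the sexes, the effect of the Kdm5 vectors on top of the AhR vector differed by the same test. The log2 differences, female minus male, were 2.99 for Gm40363, 2.75 for Bcl6, 1.95 for Spata2l, 1.44 for Rap1gap, 1.42 for Lgals4 and 1.30 for Rasgef1b. They were -4.77 for Gm42078, -2.28 for Gm39701, -1.99 for Gm41844, -1.85 for Scara5, -1.81 for Camk2b and -1.73 for Mt1.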

How the results depend on the processing

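Over the 16 genes, 15 alternatives gave 238 single-gene values, of which all kept their direction and 153 were still called. Leaving out a mouse could not reverse these genes, because their groups do not overlap. The count depended on which libraries set the spread: 2 in the 12 female libraries alone, 0 in the compared groups alone (by limma, with 292 at an unadjusted p under 0.05) and 37 with library weights. Leaving out 1 mouse gave 5 to 36, namely 6 and 36 without AhR-vector mice 2 and 3 and 7, 7 and 5 without Kdm5 and AhR-vector mice 1, 2 and 3. The 14 differences with and without the AhR vector became 1 in the 12 female libraries or compared groups alone and 1 to 23 without 1 mouse: 9 without AhR-vector mouse 1, 1 without Kdm5 and AhR-vector mouse 3, 8 without Kdm5 mouse 1, and 1 and 23 without control mice 1 and 2. The 40 sex differences became 20 in the compared groups alone, 159 with library weights, 18 with median-of-ratios scaling and 2 to 56 without 1 mouse: 18 and 2 without female AhR-vector mice 1 and 2, 15, 14 and 2 without female mice 1, 2 and 3 with both vectors, 19, 5 and 19 without male AhR-vector mice 1, 2 and 3, and 5 and 15 without male mice 2 and 3 with both vectors. The cause was not tested. Log2 fold changes near 0 changed sign for Rasgef1b (-0.04 without mouse 3 with both vectors; range without 1 mouse -0.04 to 0.27), Scara5 (0.00 without AhR-vector mouse 2; range -0.17 to 0.00), Camk2b (0.04 with library weights, 0.15 without AhR-vector mouse 3, 0.03 without mouse 2 with both vectors; range -0.21 to 0.15), Sox9 (-0.01 without AhR-vector mouse 3; range -0.01 to 0.32) and Hba-a2 (-0.04 without mouse 2 with both vectors; range -0.04 to 0.32).

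Scaling by median of ratios moved the median of all genes by -0.0154 in the main comparison. It moved that of the difference with and without the AhR vector by -0.0325 and that of the sex difference by -0.0674. No paired analysis was possible because the labels give no replicate numbers shared between groups. With 3 mice a group, unknown depth and a table of chosen genes, changes near 0.5 log2 can be missed.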
